A study of Homo sapiens with 24 samples.

Results

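The HBB segment is the stretch of chromosome 11 band 11p15.4 over the 3′ side of HBB, the gene of the beta subunit of adult haemoglobin, that was called as a peak in several MYC-tag immunoprecipitations of lung cancer cells. Its members were chosen by position, as every deposited peak on chromosome 11 that overlapped 5246000 to 5248400 (GRCh37), a window set around the gene. They number 4 of the 6236 peaks in the 6 deposited lists, 1 each in PC9 wild type, PC9 METTL7A, PC9-OR wild type and PC9-OR METTL7A. The window was drawn around a segment already known to be called, so the number of lists that hold it is a description and carries no test.

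PC9 is a lung adenocarcinoma cell line that depends on a mutant EGF receptor, and PC9-OR is its derivative resistant to the EGFR inhibitor osimertinib. The 24 libraries form 12 groups of 2, of which 6 groups are immunoprecipitations with a MYC-tag antibody and 6 are inputs. PC9 cells, labelled untreated, were wild type or overexpressed METTL7A carrying MYC-tag and FLAG. PC9-OR cells, grown in 1 uM osimertinib, were wild type, carried the empty MYC-tag-FLAG vector, or overexpressed tagged METTL7A or its tagged K86A form. METTL7A belongs to the methyltransferase-like proteins and is known as a membrane protein of the endoplasmic reticulum that also sits on lipid droplets. For the wild-type cells of both lines the labels name no tagged protein and no vector. The labels do not say which promoter drives the constructs or whether the lines are single clones. The lists hold peaks only, so the lung identity of the cells was not checked against marker genes here.

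HBB lies in the beta-globin cluster with the fetal and embryonic globin genes, which are transcribed under a shared distal locus control region and almost only in red cell precursors. The gene has 3 exons and is read towards lower coordinates of chromosome 11, so the low edge of the segment is its 3′ side. Beta-globin intron and 3′ sequences are also common parts of expression plasmids, where they support splicing and polyadenylation of the transgene. Neither an annotation nor a sequence of GRCh37 was used here. By textbook knowledge of the gene, the segment, followed in the direction of the gene, begins inside the second intron, covers the whole of the third exon with its 3′ untranslated region, and ends in the flank past the gene, while the promoter and the first and the second exon lie outside it.

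The 4 calls covered almost the same bases. The segment ran from chr11:5246148-5247336 in PC9 wild type, 1189 bp wide. In PC9 METTL7A it was chr11:5246136-5247344, 1209 bp wide. In PC9-OR wild type it was chr11:5246133-5247357, the widest at 1225 bp. In PC9-OR METTL7A it was chr11:5246149-5247343, 1195 bp wide. All 4 thus shared 1188 bp, or 97.0% of the 1225 bp that any of them covered. The lowest and highest start differed by 16 bp and the lowest and highest end by 21 bp. Without PC9-OR wild type the ends differed by 8 bp and the starts by 13 bp, and without PC9 wild type the ends differed by 14 bp. The window reached 1043 bp past the highest end, towards the promoter, and held no further peak there.

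The summit, the base with the highest fragment pileup, lay on the 3′ side of the middle in every call. It was at 5246468 in PC9 METTL7A, 5246499 in PC9-OR METTL7A, 5246519 in PC9-OR wild type and 5246525 in PC9 wild type. These positions fell 27.5% to 31.7% of the way from the low to the high edge. They spanned 57 bp, and 26 bp without PC9 METTL7A, whose summit was the lowest. By the same textbook knowledge all 4 summits lie in the flank beyond the 3′ end of HBB and not in an exon.

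**Figure D1:**
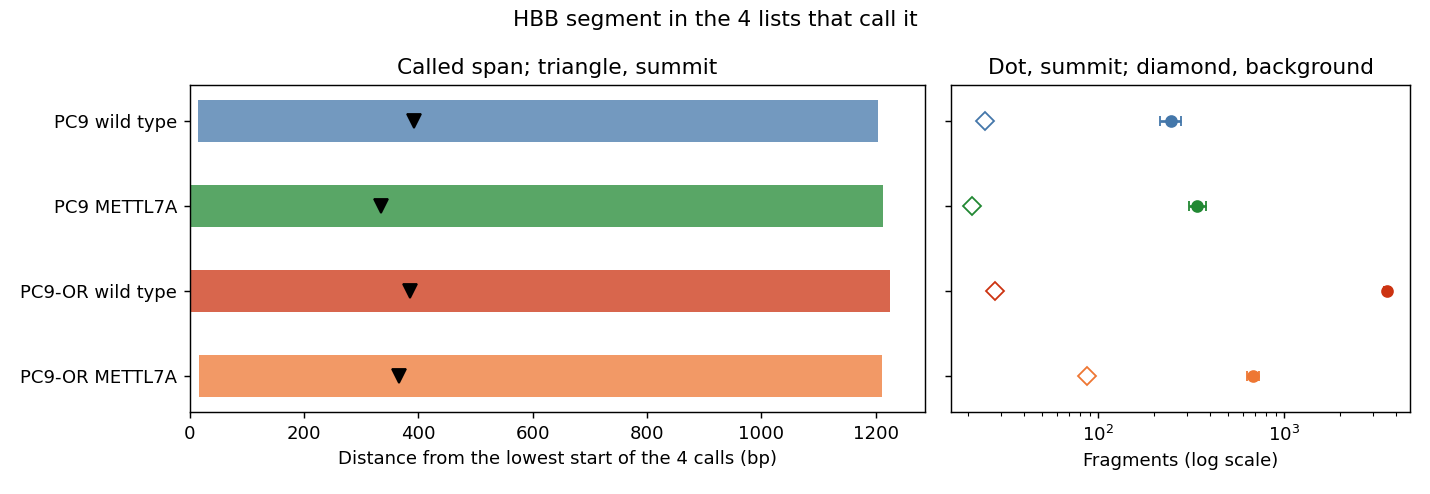
Called span of the HBB segment (bars, left, in bp from the lowest start) with its summit (triangles), and on the right the recovered fragments at the summit (dots, exact 95% Poisson interval) and the recovered local background (open diamonds) on a log scale, for the 4 lists that call it. The bars nearly coincide although the summits rest on 246 to 3577 fragments.

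Fragment numbers differed far more than edges. The fragment number at the summit and the local background, the number expected there by the peak caller, were solved for each peak from its deposited fold and p-value together. PC9 wild type had 246 fragments at the summit (exact 95% Poisson interval 216 to 279, counting error only). PC9 METTL7A had 342 (307 to 380) and PC9-OR METTL7A had 680 (630 to 733). PC9-OR wild type had 3577 (3461 to 3696), the most of any peak in the series. No fragment number fell inside the counting interval of another, but there is 1 peak-calling run behind each, with no replicate error. Which libraries entered a run is not stated, and no read totals from the files were used. The highest was 14.5 times the lowest, and 2.76 times without PC9-OR wild type. Between these 4 calls the edges moved by at most 21 bp.

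The local background under the segment was raised as well. It was 24.7 fragments in PC9 wild type, 20.9 in PC9 METTL7A, 28.0 in PC9-OR wild type and 87.5 in PC9-OR METTL7A. The most common background of all peaks in the same peak-calling run, called its floor, was 0.211 in PC9 wild type, 0.151 in PC9 METTL7A and 0.341 in PC9-OR METTL7A. The background under the segment was therefore 117, 139 and 257 times the floor of its own run. The PC9-OR wild-type run holds no other peak and has no floor. Among the 6233 peaks of runs with a floor, 5 had a background of at least 100 floors, or 0.0802%, and 3 of these were the HBB segment. The other 2 were the mitochondrial peaks of the PC9-OR METTL7A list, at 352 floors in the first run and 297 in the second. No source used here names the control for peak calling, so whether this background was counted in the input libraries or in the immunoprecipitated ones cannot be told apart.

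Fold enrichment, a value of the authors' peak caller for each peak, was 9.61 in PC9 wild type, 15.6 in PC9 METTL7A, 7.70 in PC9-OR METTL7A and 124 in PC9-OR wild type. In the PC9-OR wild-type list a background close to those of the PC9 lists stood under more than 10 times their fragments. In PC9-OR METTL7A the fold was the lowest of the 4 although its fragment number was the next highest, and its background was the highest. Its −log10 q was 343, against 144 in PC9 wild type, 269 in PC9 METTL7A and 5992 in PC9-OR wild type.

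Set against the floor, the remaining lists came closer together. The fragments at the summit were 1166 floors in PC9 wild type (1025 to 1321, from the Poisson interval of the fragments alone), 1994 in PC9-OR METTL7A (1847 to 2150) and 2265 in PC9 METTL7A (2031 to 2518). The intervals of the METTL7A lists overlapped, and that of PC9 wild type lay below both. The highest was 1.94 times the lowest over these 3 lists, and 1.14 times without PC9 wild type. The floor is only a relative measure of usable depth, and its own error is not in these intervals.

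Within its own run the segment stood above almost every other peak. In the second PC9 wild-type run it ranked first of 83 peaks by fragments, fold, −log10 q, background and width. The runners-up there, in 17q21.31 and 5p14.1, had 12 fragments each, so the segment had 20.5 times as many. In the PC9 METTL7A list it was first of 56 by the same measures. The next were a pair of peaks in 16q11.2, beside the centromere of chromosome 16, with 41 and 23 fragments, and the segment had 8.34 times the larger number. In the second PC9-OR METTL7A run it was first of 4870 peaks by fragments and −log10 q, second by background, but only place 83 by fold and 126 by width. The next there was a mitochondrial peak with 317 fragments, and the next nuclear peaks, in 20q13.32 and 3p25.2, had 48 each.

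Peaks of this depth were rare. Over all 6 lists 6 peaks, or 0.0962%, had at least 100 recovered fragments, of which 4 were the HBB segment and 2 were mitochondrial. Outside the segment no nuclear peak exceeded 49 fragments. A −log10 q of at least 50 was reached by 5 peaks, or 0.0802%, the 4 calls of the segment and 1 mitochondrial peak. The width also stood apart in the thinner runs. At 1189 bp in PC9 wild type the segment was 3.79 times the median of 314 bp of the other peaks in its run, whose widest was 712 bp. In PC9 METTL7A it was 4.69 times the median of 258 bp, with the widest other peak at 406 bp. In PC9-OR METTL7A it was 2.99 times the median of 399 bp, and 125 other peaks were wider, up to 3769 bp.

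**Figure D2:**
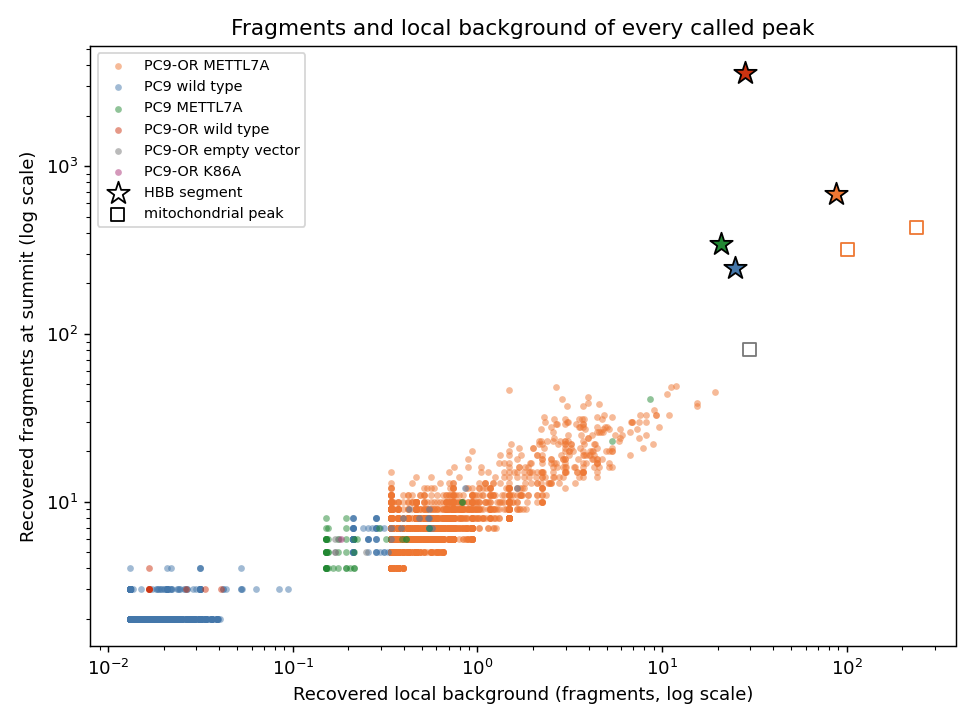
Recovered fragments at the summit against recovered local background, both on log scales, for all 6236 peaks, coloured by list, with the HBB segment as stars and mitochondrial peaks as open squares. The 4 stars lie at 246 to 3577 fragments, above the 49 that no other nuclear peak exceeds, and at backgrounds of 20.9 to 87.5.

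No peak was called in the rest of the globin cluster. No list held another peak within 1 Mb of the segment, a span that takes in the delta-, gamma- and epsilon-globin genes and the locus control region. The nearest one in any list was 1252 kb away towards higher coordinates, in PC9-OR METTL7A, with 5 fragments and a fold of 4.47. On the other side the nearest was 2021 kb away in the same list, with 4 fragments. In PC9 wild type the neighbours on chromosome 11 were 4.37 Mb below and 2.32 Mb above, with 3 and 2 fragments. Both came from the first run, which did not call the segment and has a lower floor than the second. The PC9 METTL7A list held 1 other peak on the chromosome, 94.6 Mb away with 5 fragments, and PC9-OR wild type held none. PC9 wild type held 62 others on the chromosome and PC9-OR METTL7A 250, while the empty-vector and K86A lists held none. With calls this sparse, the lack of a further peak is a description and not a result about the globin cluster. The segment was thus a single interval with a high pileup and no called shoulder or satellite peak.

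Of the 6215 positions obtained by merging the peaks of all lists, the HBB segment was the only one called in 3 or more lists, 0.0161% of positions. Another 16 were called in exactly 2, which makes 17 positions, or 0.274%, in at least 2 lists. Of the nuclear ones, those with the highest minimum fold were in 5p13.1 (7.01 and 7.06, with 8 and 11 fragments), in 8q21.2 (6.08 and 10.4, with 6 and 13) and in 5p13.2 (5.97 and 7.43, with 7 and 8). None of these is near the fragment numbers of the segment. One shared position was mitochondrial, called in the PC9-OR empty-vector and PC9-OR METTL7A lists with 81 and 429 fragments.

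Edges at the other shared positions differed more. Over the 16 pairs of overlapping peaks from different lists outside HBB, the median difference was 212 bp for starts (4 to 471) and 164.5 bp for ends (9 to 551). Over the 6 pairs of the HBB calls it was 12.5 bp for starts (1 to 16) and 10.5 bp for ends (1 to 21). The share of the union that both peaks covered was 97.1% to 99.3% for the HBB pairs and 7.42% to 92.9% for the others. No other pair was within both 16 bp at the start and 21 bp at the end. The closest was the pair in 5p13.2, at 20 bp and 9 bp. Summits separated less, with a median difference of 28.5 bp for the HBB pairs (6 to 57) and 135.5 bp for the others (14 to 624), of which 5 were at or below 57 bp. The nuclear pairs outside HBB rest on far fewer fragments. The mitochondrial pair, with 81 and 429 fragments, had starts 4 bp apart and ends 143 bp apart, and both of its peaks covered 61.4% of their union. The 6 HBB pairs share 4 calls, so these values are given side by side with no test. What sets the difference was not tested.

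**Figure D3:**
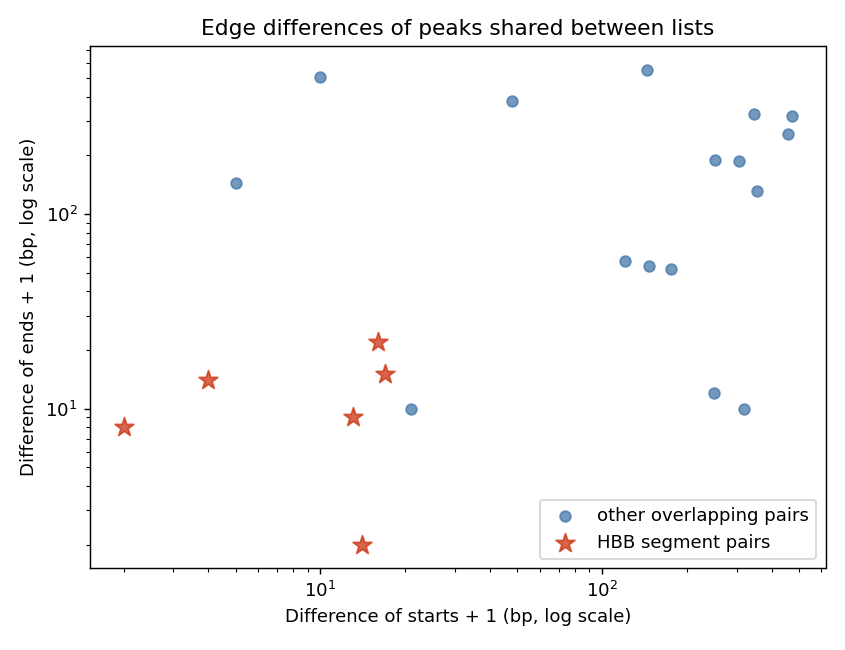
Difference of starts (x axis) and of ends (y axis) between overlapping peaks of different lists, each plus 1 bp on a log scale, for the 6 HBB pairs (stars) and the 16 other pairs (dots). All stars lie at 16 bp or less by 21 bp or less, and 1 dot, in 5p13.2, lies close to them.

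Calls of the segment are set out here by construct. The segment was called in both wild-type lists, for whose cells the labels name no vector. It was also called in both METTL7A lists, whose cells carry the tagged METTL7A construct. It was in neither the empty-vector nor the K86A list, whose cells carry a vector as well. Those lists hold only 6 and 1 peaks in all, and a segment that is not called is not shown to be absent. In PC9 the METTL7A list had 1.39 times the fragments of the wild-type list, and in PC9-OR 0.190 times. With 1 call per list these ratios have no replicate error, and they are not corrected for the depth of the runs. Whether DNA of a plasmid that carries a beta-globin piece adds to the segment was not tested, as no vector sequence and no reads were used here.

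Calls also differed inside groups. The lists hold 10 peak-calling runs, of which 4 called the segment and 6 did not. In PC9 wild type, PC9-OR wild type and PC9-OR METTL7A the second run called it and the first did not. The first PC9 wild-type run held 1143 peaks of 2 to 4 fragments at a floor of 0.0131, and the first PC9-OR wild-type run 9 peaks of 3 or 4 fragments at a floor of 0.0167. Their floors were lower than those of all other runs that have one. The first PC9-OR METTL7A run held 67 peaks and had the highest floor, 0.676, so that it lacked the segment at a higher floor than the second run had with 680 fragments. The first empty-vector run held 5 peaks of 5 or 6 fragments at a floor of 0.170, between the floors of PC9 METTL7A and the second PC9 wild-type run, which both called the segment. The second empty-vector run held only the mitochondrial peak, and K86A only 1 peak of 6 fragments in 22q12.3. A segment that is not called is not shown to have had no fragments, since a list gives nothing below its threshold. Left without all second runs, 1 list, PC9 METTL7A, still holds the segment.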

How the data were processed

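The submitters' processing notes list build GRCh37 and, among other tools, MACS2 2.2.7.1 and Bowtie2 2.4.2. What each did, with which settings and against which control, no source used here says. Per the labels' protocols, 20 ug of chromatin entered each immunoprecipitation, 2.5 ng of its product entered each library, and each library was sequenced to a nominal 20M paired-end reads. Each of the 6 deposited lists, 1 per group, gives per peak the start, end and summit position, a deposited score (10 times −log10 q), the authors' fold enrichment as a ratio over the local background, plus the authors' −log10 p and −log10 q. Peak names and numbers show 10 peak-calling runs placed one after another. That a run is a replicate is an inference.

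Fragments and background were solved for each peak from fold = (fragments + 1) / (background + 1) and the Poisson upper tail, within 2 units of the tolerance set by the deposited rounding. All 6236 peaks had exactly 1 solution, with a largest misfit of 1.07 units. On simulated data 300 of 300 peaks were recovered and 0 of 300 decoys accepted. The simulated peaks were drawn from the same formula, so this checks the solving and not the formula. Every simulated peak had at least 5 fragments and a fold above 3, so peaks with fewer fragments or lower folds were not covered. Among these were all peaks of the first PC9 wild-type run (2 to 4 fragments) and the first PC9-OR wild-type run (3 or 4). The simulated peaks did not extend to the fold of 124 and 3577 fragments of PC9-OR wild type. Nor did they extend to the mitochondrial folds of 1.80 in PC9-OR METTL7A and 2.66 in the empty-vector list. A floor needs at least 5 peaks in a run. Peaks were compared by an overlap of 1 bp. Coordinates are 1-based. Bands came from the circlize package. Python 3.11.15, pandas 2.3.3 and scipy 1.17.1 were used. The member, the tests and the rule for named peaks (positions in 3 or more lists, the 3 leading positions in 2 lists, the 3 other peaks with most fragments in each run that calls the segment, and the nearest neighbours on chromosome 11) were chosen with earlier results of these data known. The mitochondrial peaks of the first PC9-OR METTL7A and second empty-vector runs were named after their values were seen.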

Additional observations from a re-analysis of the deposited data

Results flagged for a closer look

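The METTL7A list had more fragments at the HBB summit than the wild-type list in PC9 and fewer in PC9-OR. METTL7A over wild type was 1.39 in PC9 and 0.190 in PC9-OR, from 1 call in each list. The difference was not tested, and the ratios set peak-calling runs against each other with no correction for their depth. The PC9-OR wild-type run that called the segment has no floor to set its fragments against.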

How the results depend on the processing

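The segment was in 4 lists with the summit inside the window, at a −log10 q of at least 5 or 50, and with the window widened by 10 kb. Leaving out each run in turn gave 3 to 4 lists, and leaving out all second runs, an alternative added after the data were seen, gave 1. Leaving out each list in turn, the largest difference was 13 to 16 bp for starts, 8 to 21 bp for ends and 26 to 57 bp for summits. Over the median background of the run in place of the floor, the background of PC9 wild type was 96.7 times and not 117 times. In PC9-OR METTL7A the rank within the run was 1 by fragments but 83 by fold, 2 by recovered background and 126 by width. Positions in at least 3 lists stayed at 1 under every overlap rule and q threshold tried. Those in at least 2 lists, 17 as deposited, were 43 with peaks widened by 1 kb, 2 at a −log10 q of at least 5 and 8 at 50% of both peaks. With no pseudocount in the fold no whole fragment number could be fitted to the 4 calls, with misfits of 8.89 to 241 units, so that alternative gave no value. No paired analysis was possible because the result comes from no test and most runs carry no replicate number.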
